A study of Mus musculus with 12 samples.

Results

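Gvin1, Gm4070 and Gm1966 are the genes of the very large inducible GTPase family that were followed across 4 interferon-γ (IFN-γ) treatments of a mouse B cell lymphoma line. They are 3 of the 53379 gene identifiers in the deposited count table, and each was found by its Ensembl identifier. They had been picked from these same libraries as genes whose transcripts were still raised after a 6 h exposure. Their values in the 6 h libraries therefore chose them, and every comparison of these 3 genes with the 6 h libraries is given as a description without a test.

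The cells were an Eµ-myc line of C57BL/6 origin, in which an immunoglobulin heavy chain enhancer drives the Myc oncogene, grown in RPMI medium with fetal calf serum. There were 4 groups of 3 libraries: unstimulated cells, and cells given recombinant mouse IFN-γ at 5 ng/mL for 1 h, 6 h or 24 h. A neutralising antibody against mouse IFN-γ (clone XMG1.2, 50 µg/mL) blocked stimulation at different times, and the series text places collection of the cells 24 h after stimulation. The 1 h and 6 h libraries thus show transcript levels long after the cytokine was blocked, not levels at 1 h and 6 h. A longer exposure also meant a shorter time from block to collection, and the effects of these cannot be told apart. The labels do not say whether the 24 h or unstimulated cells also received antibody. They name a single cell line, and nothing in them says that replicates came from separate cultures. The p-values then cover only the spread between the samples at hand, which may be technical.

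IFN-γ acts through its receptor and the kinases JAK1 and JAK2, and its early transcriptional response runs through GAS elements (gamma-activated sequences) and induces further factors such as IRF1. IRF1 binds interferon-stimulated response elements (ISREs) in many of the genes induced later. Interferons induce 4 families of GTPases in mice: the guanylate-binding proteins (GBPs), the immunity-related GTPases (IRGs), the Mx proteins and the very large inducible GTPases. GBPs and IRGs attack the vacuoles of intracellular pathogens and Mx proteins restrict viruses, whereas the function of the very large inducible GTPases, the largest proteins of these families, is less well worked out.

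On GRCm38 (mm10; GENCODE M21 annotation) all 3 genes lay on the minus strand of chromosome 7. Gm4070 (ENSMUSG00000078606.8, chr7:105895139-105953967) and Gvin1 (ENSMUSG00000045868.12, chr7:106156556-106215326) were annotated as protein-coding, with 9275 and 9005 bases of exon. Gm1966 (ENSMUSG00000073902.5, chr7:106596743-106604035) was a single exon of 7293 bases that GENCODE M21 annotated as an unprocessed pseudogene, whereas RefSeq holds it as a longer protein-coding gene. Another 8 annotated pseudogenes of the family lay in the same cluster. They were chosen by sequence similarity to Gvin1 after counts of the region had been seen.

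The transcripts of Gvin1 and Gm4070 were nearly the same sequence. Their main annotated transcripts aligned over 8795 bases with 3 mismatches (99.966% identity), all in coding exon sequence. The substitutions from Gvin1 to Gm4070 were G1895T, G4994A and C7165T, with positions counted from 1 at the 5′ end of the transcript. The 81 bases around each are shown because reads over them are the main means of telling these genes apart, and the capital marks the base that differs. The first pair surrounds G1895T.

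Gvin1, chr7:106163416-106163496, minus strand: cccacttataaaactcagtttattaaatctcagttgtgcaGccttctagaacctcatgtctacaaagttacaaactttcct
Gm4070, chr7:105901999-105902079, minus strand: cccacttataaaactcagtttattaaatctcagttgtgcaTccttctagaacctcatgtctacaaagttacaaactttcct

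The next pair surrounds G4994A.

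Gvin1, chr7:106160317-106160397, minus strand: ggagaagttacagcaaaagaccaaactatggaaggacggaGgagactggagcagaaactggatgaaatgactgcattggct
Gm4070, chr7:105898900-105898980, minus strand: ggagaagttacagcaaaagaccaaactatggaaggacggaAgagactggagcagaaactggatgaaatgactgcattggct

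The last pair surrounds C7165T, and the same stretch of Gm1966 follows with capitals at the 11 bases where it differs from Gvin1.

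Gvin1, chr7:106158146-106158226, minus strand: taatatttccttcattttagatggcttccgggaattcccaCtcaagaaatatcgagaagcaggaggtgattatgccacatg
Gm4070, chr7:105896729-105896809, minus strand: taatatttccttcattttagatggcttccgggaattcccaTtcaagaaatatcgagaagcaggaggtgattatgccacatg
Gm1966, chr7:106596912-106596992, minus strand: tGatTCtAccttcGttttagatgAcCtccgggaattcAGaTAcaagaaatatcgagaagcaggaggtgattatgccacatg

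Reads of 125 bases can separate Gm1966 well and the other genes poorly. Of the 125-base windows in the Gvin1 transcript, 265 of 8881 (2.984%) occurred in no other annotated transcript, and for Gm4070 this held for 276 of 8883 (3.107%). At C7165T all 125 windows over the site were unique in both genes. At G1895T all 125 were unique in Gvin1 but 24 in Gm4070, and at G4994A 15 were unique in Gvin1 and all 125 in Gm4070. For Gm1966, 7168 of 7169 windows (99.986%) were unique, and its transcript was 93.199% identical to that of Gvin1. No source used here says how reads with several placements were counted. The single-gene values of Gvin1 and Gm4070 are therefore uncertain, whereas those of Gm1966 rest on its own sequence.

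Depth was high in every library. Totals ran from 49440358 to 67096610 counts, and levels are given in CPM, counts scaled by library total and TMM factor (trimmed mean of M-values). Between 69.9% and 73.9% of genes with 1 to 20 counts had an even count, the pattern left by counting both mates of a pair. The 8 B cell markers, among them Cd79a and Pax5, summed to 2130 to 2180 CPM in unstimulated libraries and 1900 to 1980 CPM at 24 h. Of the 8 myeloid markers, which mark another cell type that expresses these GTPases, the sum was 5.81 to 7.01 CPM in unstimulated libraries and 5.35 to 6.26 CPM at 24 h. Nearly all of this sum came from Cd68 (3.69 to 5.11 CPM over the 12 libraries) and Itgam (0.996 to 2.71 CPM), while Csf1r was at most 0.284 CPM, Lyz2 at most 0.102 CPM and Adgre1 at most 0.0892 CPM in any library. T and NK cell markers summed to at most 0.408 CPM in any library, with 3 of 6 at 0 in all. The 4 stromal markers summed to 57.4 to 58.9 CPM in unstimulated libraries, 58.9 to 62.2 at 1 h, 63.8 to 68.9 at 6 h and 87.2 to 91.5 at 24 h, nearly all from the endothelial and leukocyte adhesion gene Pecam1. Their part in the results below was not tested.

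Gm1966 stood in the order of exposure. Its level in the 3 unstimulated libraries was 5.14, 6.51 and 7.25 CPM, and after the 1 h exposure it was 10.6, 10.9 and 11.1 CPM. After the 6 h exposure it was 15.9, 16.6 and 16.5 CPM, and after 24 h it was 466.7, 478.3 and 450.1 CPM. Each longer exposure left every library above every library of the shorter ones, and the step from 6 h to 24 h was much the largest of the 3. The means were 6.30 ± 1.07, 10.9 ± 0.279, 16.3 ± 0.364 and 465 ± 14.1 CPM (SD, n = 3 each).

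Gvin1, which gives the family its mouse name, was low at collection in every group but that of the 24 h exposure. Unstimulated libraries held 2.14, 2.66 and 1.97 CPM, and 1 h libraries 2.36, 2.59 and 3.05 CPM. The 6 h libraries held 3.87, 3.65 and 3.99 CPM, and the 24 h libraries 90.5, 94.2 and 83.2 CPM. Unstimulated and 1 h values overlapped, while all 6 h values lay above both and all 24 h values far above these. Means were 2.26 ± 0.362, 2.66 ± 0.356, 3.83 ± 0.173 and 89.3 ± 5.61 CPM (SD, n = 3 each).

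Gm4070 was close to absent without IFN-γ. Its counts in the unstimulated libraries were 4, 6 and 21, or 0.0719, 0.120 and 0.357 CPM, and in the 1 h libraries 21, 14 and 25, or 0.369, 0.234 and 0.408 CPM. After the 6 h exposure the counts were 55, 83 and 44 (0.976, 1.43 and 0.824 CPM), and after 24 h they were 5154, 5020 and 5536 (88.5, 90.7 and 82.3 CPM). Unstimulated and 1 h values overlapped because of the third unstimulated library, which had more counts than the other unstimulated libraries together. The 24 h libraries stood far above all others. Means were 0.183 ± 0.152, 0.337 ± 0.0916, 1.08 ± 0.314 and 87.2 ± 4.35 CPM (SD, n = 3 each).

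**Figure D1:**
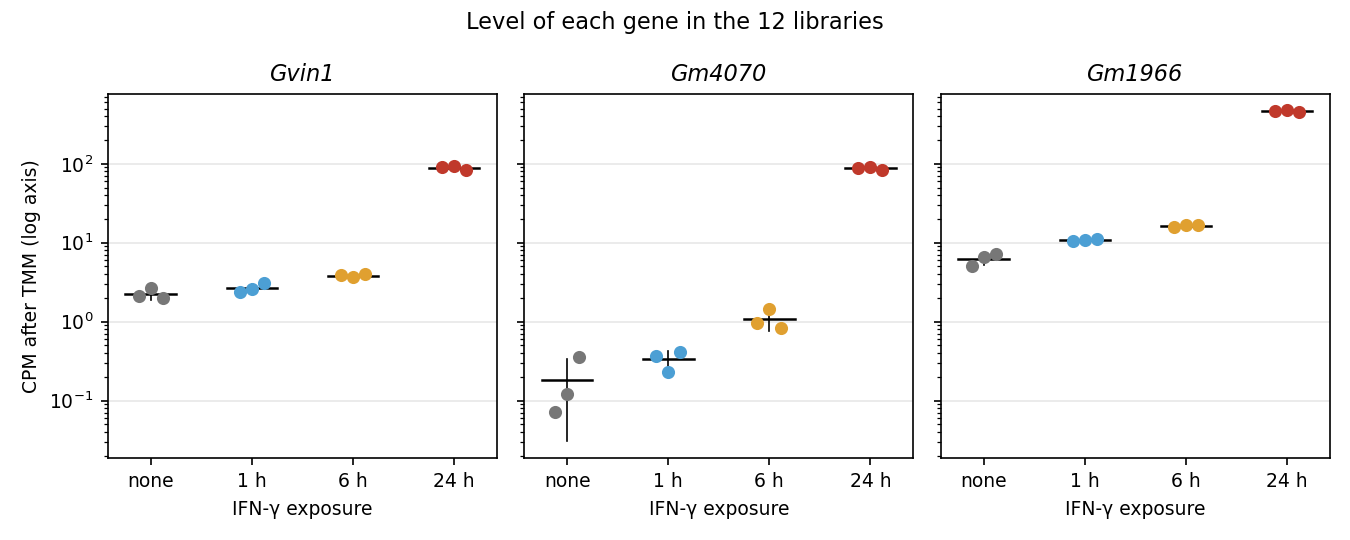
Level of Gvin1, Gm4070 and Gm1966 in each of the 12 libraries (CPM after TMM, log axis) by IFN-γ exposure. Points are libraries, horizontal bars group means and vertical bars ± SD (n = 3); the 24 h libraries stand above 80 CPM for each gene, and unstimulated and 1 h libraries overlap for Gvin1 and Gm4070 but not for Gm1966.

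After the 24 h exposure all 3 genes were far above their level in unstimulated cells. The ratio of means was 39.5 for Gvin1, 477 for Gm4070 and 73.8 for Gm1966. In bulk RNA a larger share of cells with the transcript and more RNA per cell cannot be told apart. By edgeR's quasi-likelihood test, with Benjamini-Hochberg adjustment over the 14299 genes tested, Gvin1 rose by 5.31 ± 0.10 on the log2 scale (SE, adjusted p = 2.48e-26). The log2 fold change was 8.84 ± 0.20 for Gm4070 (adjusted p = 8.86e-16) and 6.20 ± 0.07 for Gm1966 (adjusted p = 8.34e-29). All 3 passed the threshold of an adjusted p under 0.05 upward, against 10.3% of all genes tested, and ranked 40, 21 and 31 of 14299 by log2 fold change. In each gene the 24 h libraries lay above every unstimulated library, as in 17.2% of all genes tested. These unstimulated libraries also entered the comparison by which the genes were picked.

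The size of the Gm4070 change rested on few counts in the unstimulated libraries. Without the third of them the log2 fold change was 9.82, the highest over all alternatives, and the lowest was 8.45. When the counts of Gvin1 and Gm4070 were added and treated as a single gene, its log2 fold change at 24 h was 6.18, against 5.31 for Gvin1 alone. The alternative of summing was chosen after seeing the data.

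The comparison of 24 h with 1 h shares no library with the comparison of 6 h with unstimulated cells. Gvin1 was higher at 24 h by 5.06 ± 0.09 on the log2 scale (SE, edgeR adjusted p = 3.82e-26). Gm4070 was higher by 8.01 ± 0.18 (adjusted p = 1.03e-15) and Gm1966 by 5.42 ± 0.07 (adjusted p = 4.01e-28). All 3 again passed upward, against 10.2% of all genes tested, and ranked 41, 21 and 38 of 14299. No 24 h library of any of them overlapped a 1 h library, and 17.8% of all genes tested had their 24 h libraries above their 1 h libraries. The summed counts of Gvin1 and Gm4070 gave 5.87.

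After an exposure of 1 h, with the cytokine then blocked, Gm1966 was higher at collection than in unstimulated cells. It was 1.72-fold the unstimulated mean, or 0.78 ± 0.08 higher on the log2 scale (SE, adjusted p = 2.19e-06 by edgeR), and all 3 of its 1 h libraries lay above all unstimulated ones. Of all genes tested, 0.273% were called higher in this comparison, and 7.8% had every 1 h library above every unstimulated one. Over the alternatives the log2 fold change of Gm1966 ran from 0.65 to 0.90, with a highest adjusted p of 0.000251, although it stayed under a fold threshold of 1 on the log2 scale, which 0.021% of all genes tested passed as called. The unstimulated libraries that serve as the baseline here were also part of the comparison by which the genes were picked, so this p is not independent of the choice of genes.

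Gvin1 and Gm4070 did not pass in that comparison. Gvin1 differed by 0.25 ± 0.12 on the log2 scale (SE, edgeR adjusted p = 0.525) and Gm4070 by 0.83 ± 0.45 (adjusted p = 0.599). For Gm4070 the estimate had about the size of that for Gm1966 but a far wider error, as 31 counts in all in the unstimulated and 60 in the 1 h libraries lay behind it. Without the third unstimulated library it was 1.80, and over the libraries left out in turn it ran from 0.44 to 1.80. Whether the 1 h response differs between Gm1966 and the other genes was examined only through the ratios of counts given further on. At 1 h the share of Gm1966's 24 h rise that was present was 0.994%, against 0.468% for Gvin1 and 0.177% for Gm4070.

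**Figure D2:**
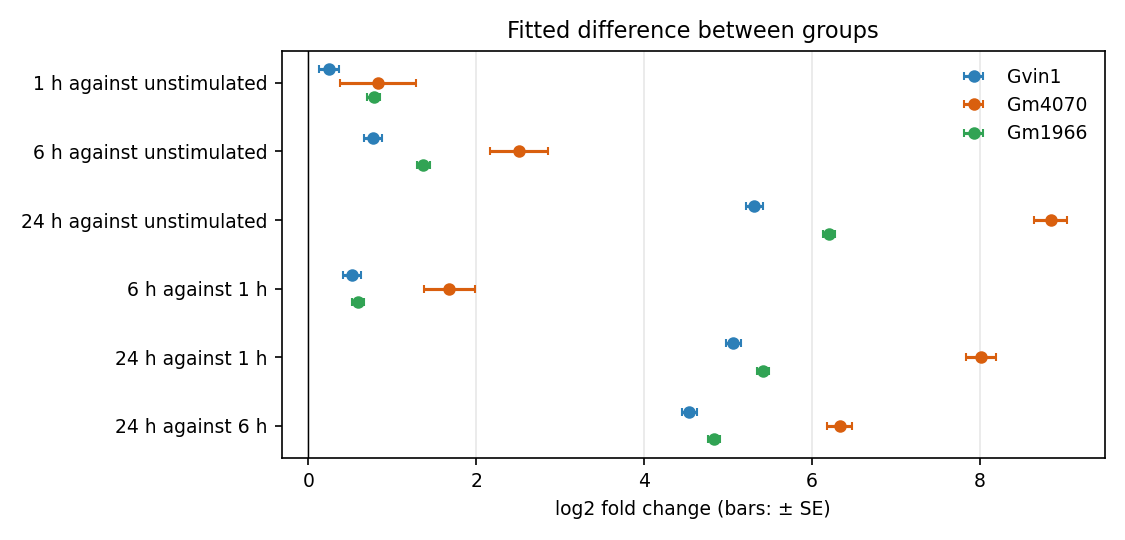
Fitted log2 fold change of Gvin1, Gm4070 and Gm1966 in each of the 6 comparisons of groups, with bars of ± SE. Every comparison with 24 h lies above 4 on the log2 scale and every comparison without it below 3; Gm4070 has the widest bars where the 24 h libraries do not enter.

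The 6 h values are those by which the genes were picked. The log2 fold change of 6 h against unstimulated was 0.77 ± 0.11 (SE) for Gvin1, 2.51 ± 0.35 for Gm4070 and 1.37 ± 0.08 for Gm1966. In all 3 genes each 6 h library lay above each unstimulated library, which held for 8.64% of all genes tested. Without the third unstimulated library the value of Gm4070 was 3.48. Against the 1 h libraries the 6 h libraries were higher by 0.52 ± 0.11, 1.68 ± 0.30 and 0.59 ± 0.07 on the log2 scale for Gvin1, Gm4070 and Gm1966. These groups did not overlap in any of the 3 genes either (5.14% of all genes tested). From 6 h to 24 h the log2 difference was 4.54 ± 0.09, 6.33 ± 0.15 and 4.83 ± 0.07, with no overlap in any of the 3 (15.6% of all genes tested).

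What was present after 6 h was a small part of the 24 h response. The share of the rise from unstimulated to 24 h that was present after 6 h was 2.19% ± 0.0793 for Gm1966, 1.81% ± 0.199 for Gvin1 and 1.03% ± 0.361 for Gm4070 (SD over the 6 h libraries, n = 3). This SD holds the unstimulated and 24 h means fixed and so leaves out their spread. For Gm1966 the unstimulated SD (1.07 CPM) was larger than the 6 h SD (0.364 CPM). Even by the narrower SD, Gm1966 and Gvin1 lay within about 2 SD of each other, so their order is not firm. Of 21 other interferon-inducible GTPases that were called higher at 24 h with a mean of at least 1 CPM there, 3 had a share above 1%, 14 had one between 0 and 1%, and 4 were at or below 0, with a median of 0.108%. Gm4070 lay within its own spread of Gbp3 and the IRG gene Ifi47 (1.02%). The 3 Gvin genes were chosen for their 6 h values and the other GTPases were not, so this difference is a description.

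Among the GBPs with a 24 h mean of at least 1 CPM, Gbp3 had the largest share (0.969%) and Gbp6 the smallest (0.0189%). Gbp2b and Gbp10 were called higher at 24 h but stood below that level there, and their shares, 11.4% and 0%, rest on 6 and 0 counts after 6 h. Among the IRGs above that level the largest was that of 9930111J21Rik1 (4.48%) and the smallest that of Gm5431, which was -1.05%. The antiviral GTPase gene Mx2 had 12.7%, with a low 24 h mean of 1.14 CPM. The Gvin genes stood above the GBPs with a 24 h mean of at least 1 CPM in this share, for Gm4070 within its spread, and below Mx2, 9930111J21Rik1 and the low Gbp2b.

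**Figure D3:**
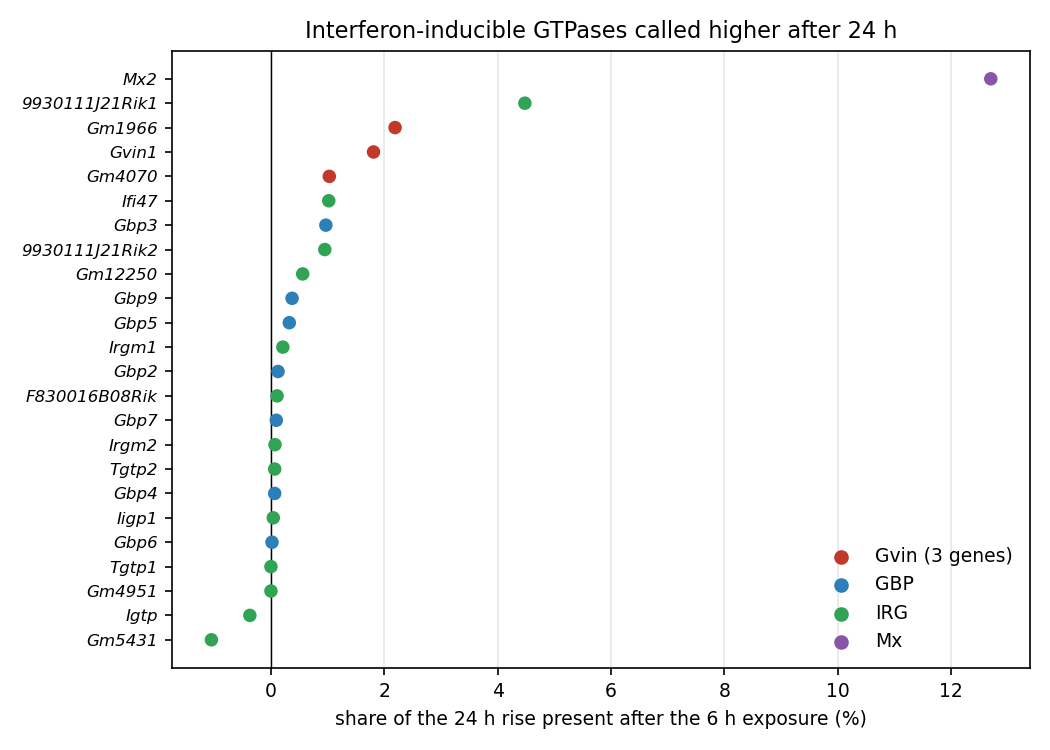
Share of the 24 h rise in CPM that was present after the 6 h exposure (percent, x axis) for the 3 Gvin genes and the 21 GTPases of other families that were called higher at 24 h with a 24 h mean of at least 1 CPM. Gm1966, Gvin1 and Gm4070 lie between 1% and 3%, most others lie near 0, and Mx2 is farthest to the right.

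Most listed genes of the other families were also higher at 24 h. Of 28 listed GBP, IRG and Mx genes 25 were tested, and 23 were called higher and 0 lower at 24 h against unstimulated, with a median log2 fold change of 7.16 beside a median near 0 over all genes tested, of which 10.3% were called higher and 8.35% lower. The GBPs gave 9 of 9 tested, the IRGs 13 of 15 and the Mx genes 1 of 1. A gene silent without IFN-γ was tested only because of its 24 h libraries, so these counts do not cover the whole lists. At 1 h, 0 of the 25 were called in either direction by edgeR, DESeq2 or limma-voom, with a median of 0, whereas Gm1966 was called. Gbp2b, Gbp10, Tgtp1, Gm4951 and F830016B08Rik had 0 counts in the unstimulated and 1 h libraries. They could not be called at 1 h, and the median falls on their value. Gbp4, Gbp6 and Iigp1 had at most 10 counts in either group. An unadjusted edgeR p under 0.05 was found for 4 of the 25, of which 3 were higher. Gbp2 (0.82 ± 0.22) and Gm12250 (0.82 ± 0.29) had log2 estimates about as large as that of Gm1966 (0.78 ± 0.08), with wider errors (SE). In both, every 1 h library lay above every unstimulated one, while Igtp was lower (-0.43 ± 0.13). DESeq2 gave no adjusted p for 3 of the 25. In that comparison edgeR called 0.147% of all genes tested lower. The difference between Gm1966 and these genes was not tested.

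The listed genes of the IFN-γ pathway rose in part. Of these 10 genes 6 were called higher and 0 lower at 24 h against unstimulated, with a median log2 fold change of 0.97. Of all genes tested, 10.3% were called higher and 8.35% lower. Irf1 rose by 4.39 ± 0.06 and Socs1, a feedback inhibitor of the receptor's kinases, by 4.53 ± 0.19 on the log2 scale (SE). The receptor genes Ifngr1 and Ifngr2 and the kinase genes Jak1 and Jak2 were not called. At 1 h against unstimulated the transcriptional coactivator gene Nlrc5 was the single listed gene called, at 0.26 ± 0.05 (edgeR adjusted p = 0.00786). Of all genes tested 0.273% were called higher there. Socs1 had a larger estimate, 0.88 ± 0.24, but was not called (edgeR adjusted p = 0.115), although every 1 h library lay above every unstimulated one. Irf9 differed by -0.30 ± 0.10 and Irf1 by -0.01 on the log2 scale, and neither was called.

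The composition of the family's signal shifted with exposure. The ratio of Gvin1 to Gm4070 counts was 29.8, 22.2 and 5.52 in the unstimulated libraries and 6.38, 11.1 and 7.48 at 1 h. It was 3.96, 2.55 and 4.84 at 6 h and 1.02, 1.04 and 1.01 at 24 h. The 24 h ratios lay below all others and were close to equality. In exact permutation tests (two-sided, smallest possible p = 0.1 with 3 libraries a group, so none of the 6 ratio tests can pass 0.05), 24 h differed from unstimulated by -3.91 in the log2 ratio (p = 0.1) and from 1 h by -2.98 (p = 0.1). From unstimulated to 1 h the change was -0.93 (exact permutation p = 0.4), and the groups overlapped.

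The ratio of Gm1966 to Gvin1 moved less. It was 2.40, 2.44 and 3.68 in unstimulated libraries, 4.49, 4.21 and 3.64 at 1 h, 4.11, 4.54 and 4.15 at 6 h, and 5.16, 5.08 and 5.41 at 24 h. The third unstimulated library overlapped with the 1 h range, and the 24 h libraries stood above all others. The log2 ratio differed by 0.90 between 24 h and unstimulated (exact permutation p = 0.1), by 0.35 between 24 h and 1 h (p = 0.1) and by 0.56 between 1 h and unstimulated (p = 0.2). Adjusted over the 6 ratio tests by Benjamini-Hochberg, the exact permutation p-values ran from 0.15 to 0.4. Per kilobase of exon, Gm1966 made up 76.0% of the summed level of the 3 genes in unstimulated libraries and 76.8% at 24 h, whereas Gm4070 went from 1.66% to 11.3% and Gvin1 from 22.4% to 11.9% (means of 3 libraries).

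**Figure D4:**
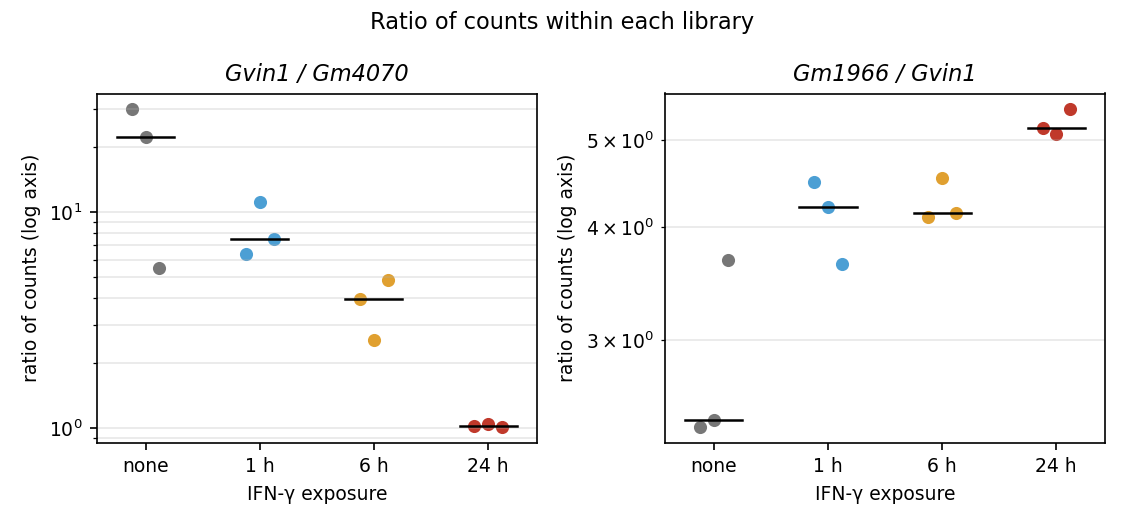
Ratio of counts within each library (log axis) by IFN-γ exposure, for Gvin1 over Gm4070 and for Gm1966 over Gvin1. Points are libraries and bars group medians; the first ratio comes to 1.01 to 1.04 at 24 h from 5.52 to 29.8 in unstimulated cells, and the second is highest at 24 h.

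Which gene is most abundant depended on the length used. Per kilobase of annotated exon, Gm1966 stood highest in each group, at 0.864 CPM per kb in unstimulated cells and 63.8 at 24 h, with Gvin1 at 0.251 and 9.91 and Gm4070 at 0.0197 and 9.40. Per kilobase of unique 125-base windows the order turned, and Gvin1 stood highest in each group. At 24 h Gvin1 was at 337, Gm4070 at 316 and Gm1966 at 64.9 CPM per kb. In unstimulated cells Gvin1 was at 8.52, Gm4070 at 0.663 and Gm1966 at 0.879. Gm4070 thus lay below Gm1966 in unstimulated cells, as at 1 h (1.22 against 1.51). It lay above Gm1966 at 6 h (3.9 against 2.28) and at 24 h. The second scale holds only if reads with a single placement alone were counted, which no source used here states. It also treats reads singly, although mates were paired. At 24 h the ranges of Gvin1 and Gm4070 in CPM overlapped, although Gvin1 had more counts in each library (ratios 1.02, 1.04 and 1.01). The level of Gvin1 and Gm4070 relative to Gm1966 cannot be settled from these counts.

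The pseudogenes of the cluster were raised as well. Of the 8, 7 were tested and 7 were called higher at 24 h against unstimulated (10.3% of all genes tested), with a median log2 fold change of 3.67. The same number were called against 1 h (10.2% of all genes tested), with a median of 2.80. Gm18852, Gm18853 and 9130208D14Rik were tested only because of their 24 h libraries, so their calls follow from the filter. Only 35.471% of the windows of Gm8979 and 42.246% of those of Gm8989 were unique, so their counts are uncertain too. Gm8995, a transcribed pseudogene between Gvin1 and Gm1966 with 98.267% unique windows, was already at 15.7 CPM per kb of exon in unstimulated cells and reached 117 at 24 h, higher by 2.90 ± 0.06 on the log2 scale (SE, adjusted p = 7.38e-23 by edgeR). Gm4759, all of whose windows were unique, went from 1.49 to 8.35 CPM per kb, by 2.48 ± 0.14 (adjusted p = 1.81e-08). Both lie between Gvin1 and Gm1966, and their log2 fold changes were below that of Gm1966, a difference that was not tested.

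Gm18852 and Gm18853 lie inside the spans of Gm4070 and Gvin1 on the same strand. They had 0 counts in the unstimulated libraries and were at least 99-fold and at least 127-fold higher at 24 h, against a floor of 6 counts (3 read pairs) over the group, which covers counting error only. Only 3.632% and 3.715% of their windows were unique, so few reads can be assigned to either with certainty. At 1 h against unstimulated 0 of 7 pseudogenes were called by edgeR (3 had an unadjusted p under 0.05), 0 by limma-voom and 1, Gm8979, by DESeq2. With 1 count in all 1 h libraries, Gm18852 could not be called there. By edgeR Gm8979 stood at 1.36 ± 0.32 (adjusted p = 0.0531, and from 0.031 to 0.37 with a library left out). After 6 h Gm4759 was called against unstimulated (adjusted p = 0.0319; 1.17% of all genes tested were called higher), a call kept in 3 of 6 fits that left out a library of these groups.

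The 3 genes' share of all counts in the cluster grew from 5.91% to 6.83% in unstimulated libraries to 8.48% to 9.63% at 1 h, 12.3% to 13.4% at 6 h and 39.8% to 41% at 24 h. The ranges did not overlap between any of the groups, but the 6 h values chose the 3 genes, so their share at 6 h is a description. Most unstimulated counts of the cluster came from Gm8995 (5949 of 6923 in the first library), which was 7.48-fold higher at 24 h. The antisense gene Gm20663, which overlaps Gm4070, had 0 counts in all 12 libraries. The 5 nearest tested protein-coding genes on each side of the stretch from Gm4070 to Gm1966 were also examined (10 in all). They lay 84 to 157.8 kb from that stretch on one side and 1489 to 2915.1 kb on the other. Their median log2 fold change was -0.01 at 24 h against unstimulated, with 1 called higher and 1 lower. At 1 h 0 were called by edgeR, DESeq2 or limma-voom, with 0 at an unadjusted edgeR p under 0.05. DESeq2 gave no adjusted p for 1 of them. Urgcp, a related GTPase gene outside the cluster, differed by -0.02 ± 0.08 on the log2 scale at 24 h (SE, edgeR adjusted p = 0.897).

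**Figure D5:**
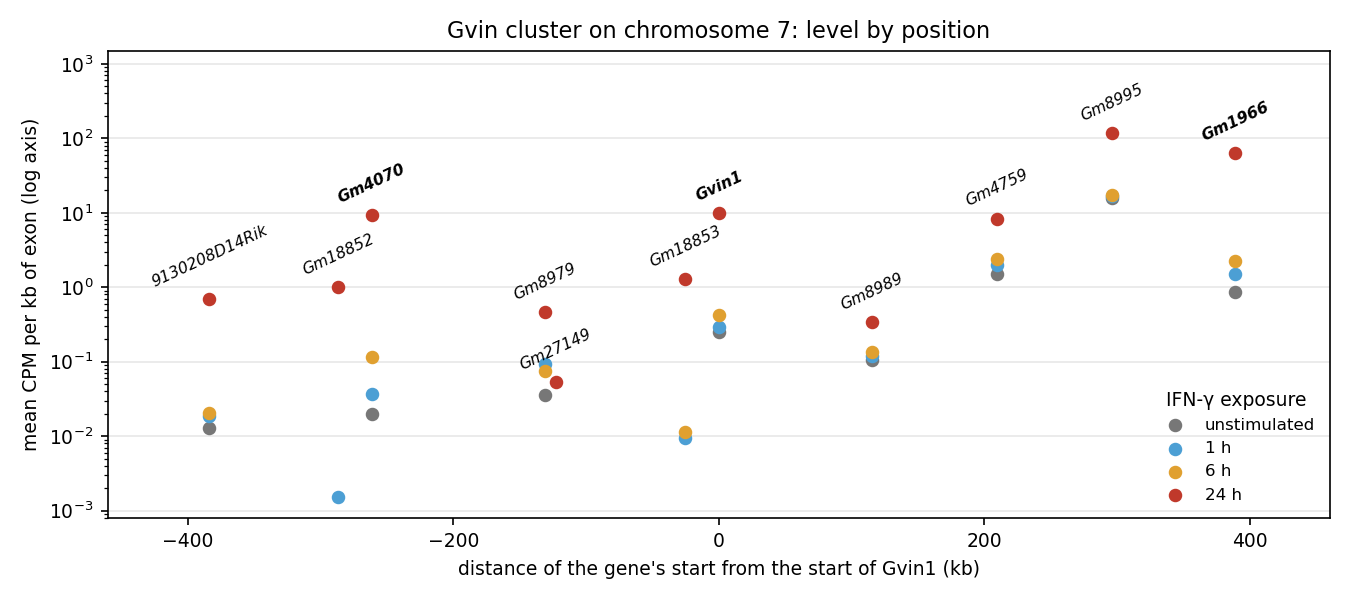
Mean level (CPM per kb of annotated exon, log axis) of the 3 Gvin genes (bold) and the 8 pseudogenes of the cluster by distance of their start from that of Gvin1 (kb), coloured by IFN-γ exposure. Group means at 0 cannot be drawn on the log axis and are left out; the 24 h mean is the highest for every gene, and Gm8995 is the highest in each group.

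A promoter was given by RefSeq (GRCm38.p6) for 1 of the 3 genes, Gm1966, at a start well upstream of the single exon in the GENCODE model. The 250 bases before it are printed because they hold a match to an ISRE core, here GAAA, any 2 bases and GAAA again, on the opposite strand. The match is in capitals and begins 163 bases before the start.

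Gm1966 promoter, chr7:106644646-106644895, minus strand: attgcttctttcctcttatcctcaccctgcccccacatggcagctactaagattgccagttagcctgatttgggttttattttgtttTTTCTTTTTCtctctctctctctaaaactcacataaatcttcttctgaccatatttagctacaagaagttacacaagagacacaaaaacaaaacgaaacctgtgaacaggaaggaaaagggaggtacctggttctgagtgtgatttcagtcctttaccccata

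The ISRE core, searched on both strands, occurred in 3.0% of 32851 mouse promoters of the same length. GAS letters, TTC and GAA with 3 bases (in 7.0% of promoters) or 4 bases (in 5.9%) between them, had no match in this window. A match of letters is no evidence of binding, and no match says only that these letters are not in these bases.

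Genes with the most similar course were sought by the distance over the 3 log2 differences from unstimulated cells (1 h, 6 h and 24 h, from 12 libraries). Nearest to Gvin1 were the cluster's pseudogene 9130208D14Rik (distance 0.37), Gbp3 (0.62) and the IRG gene Irgm1 (0.80). Nearest to Gm4070 were the serine protease inhibitor gene Serpina3f (1.66), the IRG gene Gm12250 (1.97) and Serpina3g (2.02), all far less close. Nearest to Gm1966 were Olfr56 (0.59), whose annotated span overlaps that of the IRG gene Ifi47, then Ifi47 itself (0.92) and Gm18853 (0.97). Gm18853 had 0 counts in all unstimulated, 6 in all 1 h and 7 in all 6 h libraries, so its likeness rests on few counts. The 6 h values by which the genes were picked are part of this distance.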

How the data were processed

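Polyadenylated RNA of 12 libraries (paired reads of 125 bases) was counted per gene by the authors, who deposited raw whole-number counts; STAR 2.5.2a, featureCounts 1.4.3-p1, Picard and mm10 were used per the submitters' processing notes. No annotation release, strand setting or handling of multiply placed reads is given in the sources used here. Sample names in the table's header matched the sample titles exactly. The genes and gene lists were chosen with earlier results of these data known.

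Genes were filtered with filterByExpr (14299 of 53379 kept, with all 3 Gvin genes), scaled by TMM and fitted over 4 groups with edgeR 4.0.16 in R 4.3.3 (robust quasi-likelihood, 8 residual degrees of freedom). A gene is called where its adjusted p (Benjamini-Hochberg) is under 0.05. Standard errors were derived from F and the log2 fold change. The common dispersion gave a coefficient of variation of 0.0579. The procedure was tested on simulated data. Replicate libraries differed by more than sampling noise (chi-square per degree of freedom 2.529 to 8.493), so each counted as 1 sample.

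Genes were named by a rule: the 3 genes, their relatives, the members of each GTPase family with the largest and smallest share of the 24 h rise, called pathway genes and the 3 most similar genes. Other genes named were chosen after their values were seen. Some listed genes are not reported here and were left out of the list counts and sums. Transcripts of GENCODE M21 were aligned with blastn 2.17.0, and pseudogenes were relatives with at least 500 aligned bases at 75% identity. Alternatives were DESeq2 1.42.0, limma-voom (limma 3.58.1), other size factors, 2 other filters, fits to 6 libraries, a replicate block, a fold threshold, halved counts and each library left out; removing length or GC trends, summing Gvin1 and Gm4070 and counting per unique window were added after seeing the data.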

Additional observations from a re-analysis of the deposited data

How the results depend on the processing

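All 3 genes were called at 24 h against unstimulated and against 1 h under each of the 17 alternatives. At 1 h the count of called genes was 0, not 1, with a log2 fold threshold of 1. With Gvin1 and Gm4070 summed, the log2 difference was 1.01 for 6 h against unstimulated, 0.71 for 6 h against 1 h and 5.17 for 24 h against 6 h; adding the counts of Gm4070 to Gvin1 makes this change. Leaving out each library in turn gave Gm4070 2.12 to 3.48 for 6 h against unstimulated, and shares of the 24 h rise present after 6 h of 1.65% to 2.04% for Gvin1 and 2.06% to 2.29% for Gm1966. No direction reversed.

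Same-numbered libraries showed little common deviation (18 pairs, r from -0.188 to 0.166, median 0.027), as did differently numbered ones (-0.161 to 0.182, median -0.005). Of 12 libraries, 7 were closest to one of their own number. With 3 libraries a group, these values cannot settle whether the numbers pair the samples. With a replicate block the members called were 3, 3 and 1, as without it, and the log2 fold changes at 24 h against unstimulated were 5.31, 8.83 and 6.21 for Gvin1, Gm4070 and Gm1966. Across genes, the 1 h log2 fold change had a Spearman rho of 0.164 with exon length and -0.20 with GC content; with each library's trend removed, Gm1966 stood at 0.77 and 0.74. Depth limits Gm4070, with 31 counts in all unstimulated libraries.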
